A study of Mus musculus with 41 samples.

Results

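A stretch of chromosome 14 carried 100 genes whose transcripts were, as a group, low in both Esrrb-depleted lines of mouse embryonic stem cells. The members are the genes that lie wholly on chromosome 14 from Tspan14, which ends at 40966807, to Fzd3, which starts at 65192449 (GRCm38, GENCODE M21 annotation), and reached a mean of at least 10 CPM, that is, counts per 1000000 assigned reads, over all 41 libraries. The stretch holds 1082 of the 55487 rows of the deposited table. Of these, 976 were under 10 CPM and 6 were left out by name (Otx2, Sall2, Ero1l, Dlgap5, Tdh and Fdft1), which leaves 100 of the 8495 genes of the table that reach 10 CPM. They are 99 protein-coding genes and 1 transcribed processed pseudogene, and genes for ribosomal proteins and respiratory chain subunits named Rpl, Rps, Nduf or Cox are not among them. The stretch was chosen by measured values, the low levels of its genes in KO2 and in KO3 against WT. The differences from WT below therefore describe the members and carry no test. Tests are given for 3 measures that were not themselves used in the choice: KO3 against KO2, the change of each difference over time, and the course of the members in WT. Asking for low levels in both lines left out flanking genes low in 1 line only, so KO3 against KO2 is not independent of the choice. The change over time is built from the same differences from WT, so it is not independent of the choice either.

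An autosomal gene is normally read from both homologous chromosomes. When a copy is missing, the transcripts of most genes fall roughly in proportion to the dose, while feedback on synthesis or decay can hold some of them nearer to their usual level and altered regulation can take others further down. The comparison made here asks which members sat at a level of 50 percent of WT, which lay below it and which above it, in each line and at each time. That level is taken as -1 on the log2 scale. DNA copy number was not analysed here, so the level of 50 percent is a point of reference.

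E14 is an established mouse embryonic stem cell line derived from a blastocyst. WT libraries carried Esrrb, and KO2 and KO3 are lines genetically depleted for Esrrb, which encodes a nuclear receptor that acts in naive pluripotency. Cells were held in 2iL (CHIR99021, PD0325901 and LIF in N2B27 medium), or were moved on fibronectin to N2B27 for 1 day and then to AloXR (activin A, XAV and BMS439 in N2B27) for 1, 3 or 5 days. Each line had 3 libraries in 2iL and 4 at AloXR day 1, and at days 3 and 5 WT and KO2 had 4 each and KO3 had 2. Each depleted genotype is 1 line, the labels do not say which part of Esrrb was removed, and nothing in them states if the libraries within a group are separate cultures. The p-values below therefore measure the spread between these libraries, and a difference between lines cannot be told apart from an effect of the depletion.

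Libraries held 3424064 to 5736053 assigned reads, with a median of 4581394. Esrrb itself was at 309 to 434 CPM in the 3 WT libraries in 2iL, at 52 to 56.7 CPM in KO2 libraries and 103 to 166 in KO3 libraries. At day 1 the range was 12.1 to 17.7 CPM in WT, 1.64 to 5.52 in KO2 and 26.1 to 41.4 in KO3, which put all KO3 libraries above WT. Reads come from the 3′ end of transcripts, so a level of Esrrb does not check a deletion elsewhere in the gene. All 5 core pluripotency markers were detected in every group. In 2iL they summed to 781 to 884 CPM in WT, 411 to 548 in KO2 and 308 to 464 in KO3, and both lines also stayed below WT at days 1 and 3, without overlap. At day 5 KO2, at 536 to 697 CPM, overlapped WT, at 619 to 717 CPM, and KO3, at 729 to 737 CPM, lay above it. The 9 naive pluripotency markers summed to 2714 to 3053 CPM in WT in 2iL, 1877 to 1998 in KO2 and 1629 to 2239 in KO3. Trophoblast markers at day 3 summed to 118 to 143 CPM in WT, with Elf5 and Cdx2 at 0 and 6 of 8 detected, and to 309 to 521 in KO2 and 422 to 471 in KO3, with 8 of 8 detected. Fibroblast and feeder markers summed to 7.66 to 102 CPM. They were highest in KO2 at day 3, at 56.2 to 102 CPM, against 20.3 to 26.8 in WT and 20.2 to 24.3 in KO3. The 8 primitive endoderm markers were all detected in every group, none at 0, and moved with KO3: they summed to 351 to 429 CPM in KO3 at day 5, 46.4 to 66.3 CPM in KO2 and 38 to 43.6 CPM in WT. The part of these markers in the members' values was not tested. In these bulk libraries, fewer cells of a type and less RNA per cell cannot be told apart.

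The members were lower than WT in both lines at all 4 times. In KO2 the median difference over the 100 members was -0.72 in 2iL, -0.85 at day 1, -0.82 at day 3 and -0.77 at day 5, on the log2(CPM + 1) scale. In KO3 it was -0.91, -1.05, -0.99 and -0.79 at the same times. Over all tested genes with at least 10 CPM the median lay between -0.05 and 0.02 in these 8 comparisons. Every depleted library showed the shift: the members' median in single libraries, each set against the WT mean of its time, was -0.93 to -0.66 over the 15 KO2 libraries, -1.06 to -0.79 over the 11 KO3 libraries and -0.03 to 0.04 over the 15 WT libraries. No depleted library overlapped a WT library in this measure. The summed level of the members was 7457 ± 184 CPM (SD, n = 3) in WT in 2iL, 4400 ± 337 CPM (n = 3) in KO2 and 4190 ± 130 CPM (n = 3) in KO3. At day 1 it was 8638 ± 36.0 CPM (n = 4) in WT, 5251 ± 94.4 CPM (n = 4) in KO2 and 4346 ± 55.0 CPM (n = 4) in KO3. KO2 thus stood at 59.0% to 60.8% of WT at the 4 times, and KO3 at 50.1% to 57.8%.

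**Figure D1:**
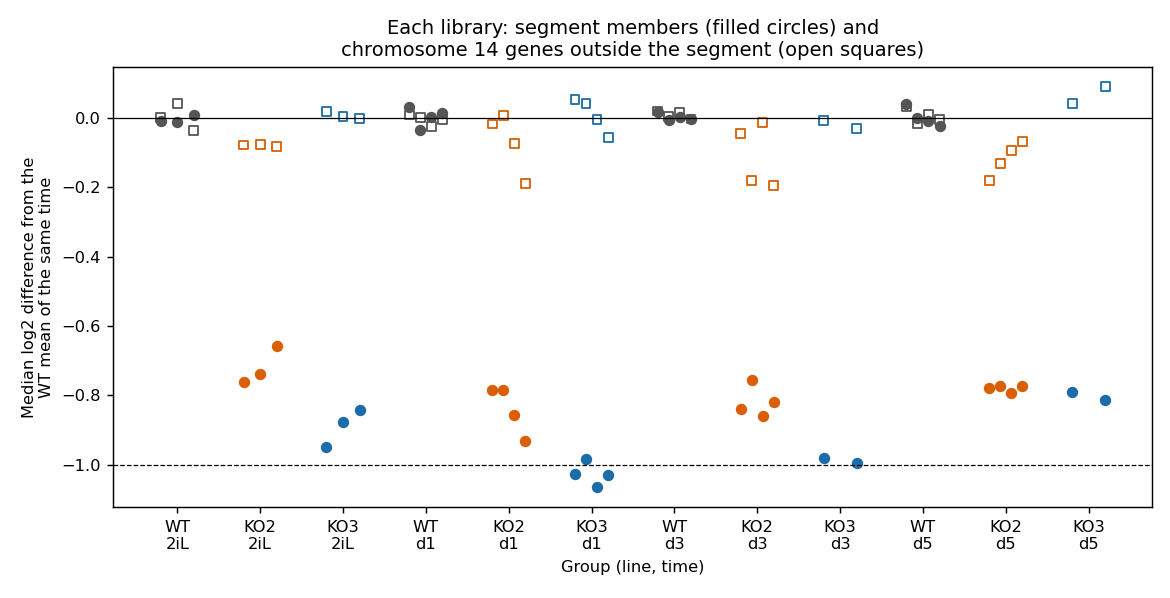
Median log2 difference from the WT mean of the same time in each of the 41 libraries (y axis), by line and time (x axis), for the 100 members (filled circles) and for 177 chromosome 14 genes outside the segment with at least 10 CPM (open squares). The dashed line marks 50 percent of WT. All KO2 and KO3 circles lie between -1.06 and -0.66, and all WT circles between -0.03 and 0.04.

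The 2 lines did not share the ends of the low stretch. Below the members, Ccser2 and Ghitm (chromosome 14, 36874936 to 37135272) had median differences of -0.94, -1.04, -0.78 and -1.19 in KO3 in 2iL and at days 1, 3 and 5, and of -0.36, 0.09, 0.07 and -0.31 in KO2. Above the members, 50 genes from Elp3 to Tdrd3 (65530449 to 87545504) had median differences of -0.81, -0.79, -0.75 and -0.82 in KO2 and of 0.01, 0.07, 0.12 and 0.15 in KO3. The low stretch therefore reached further up in KO2, and further down by 2 measured genes in KO3, and the members lie where both lines were low. Beyond these flanks, the medians over 85 genes up to Wapl and over 40 genes past Tdrd3 lay between -0.09 and 0.09 in both lines at all times. The limits of the flanking stretches were set after their values were seen, and these medians are a description.

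**Figure D2:**
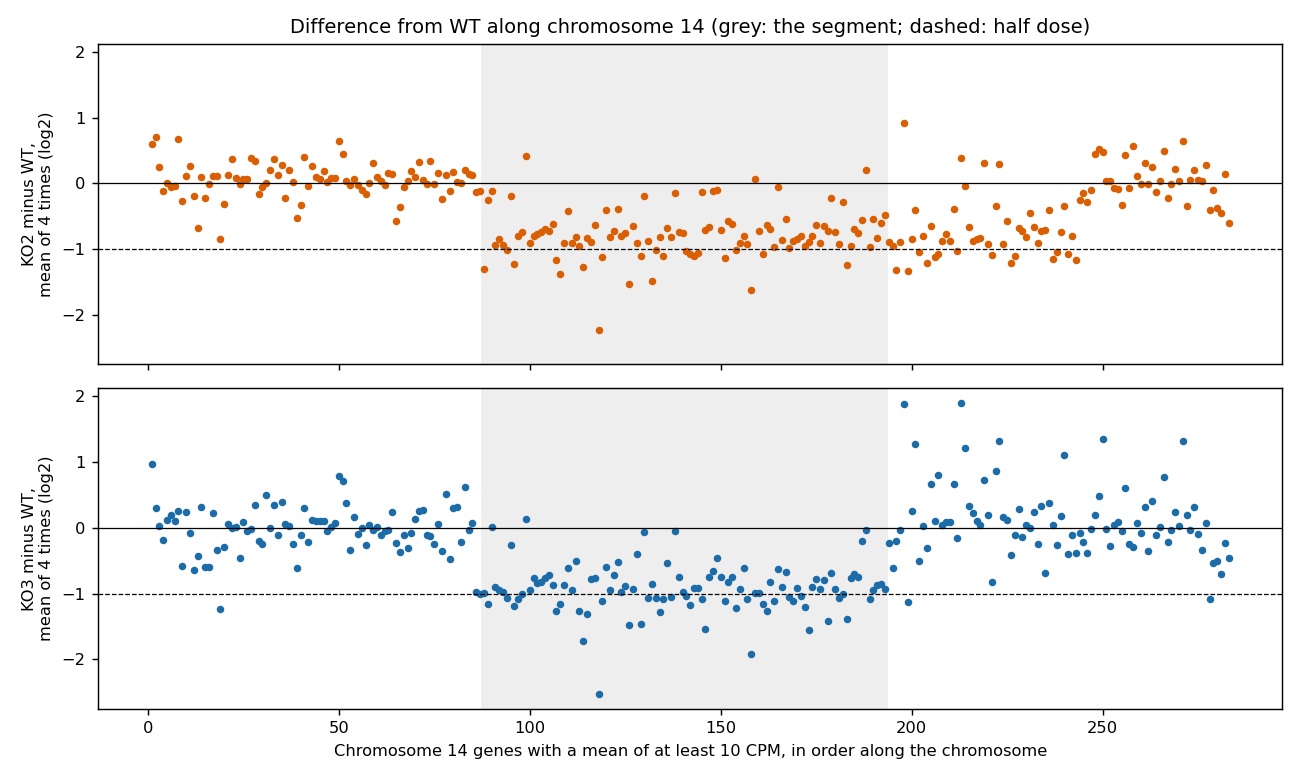
Each point is a chromosome 14 gene with a mean of at least 10 CPM, in order along the chromosome (x axis, by rank), with its difference from WT averaged over 4 times (y axis, log2) in KO2 (upper panel) and KO3 (lower panel). The grey band marks the segment, with the 6 genes left out by name, and the dashed line 50 percent of WT. Most points are low in the band in both panels, and right of it in KO2 but not in KO3, where the medians of 50 genes were 0.01 to 0.15.

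In 2iL the first member, Tspan14, had the lowest difference of all 100 members in KO2 (-1.98) and in KO3 (-1.94). Averaged over both lines and all times, the outermost members did not stand apart from the rest, but these values also chose the stretch. Among the outermost members, Fam213a differed between the lines. Its mean was -1.16 in KO3 and -0.25 in KO2. In KO2 it was at -1.24 in 2iL and at 0.75, -0.03 and -0.49 at days 1, 3 and 5. Tspan14 and Fam213a, the first members at the lower end, had mean differences over the 8 comparisons of -1.15 and -0.70, against -0.56 for Ccser2 and -0.56 for Ghitm just outside. Extl3 and Fzd3 at the upper end had -0.72 and -0.70, against -0.56 for Elp3 and -0.78 for Pbk just outside. At the level threshold, Efs (10.4 CPM) and Slc22a17 (10.5 CPM) had -1.03 and -0.87, and Ttc5 (9.69 CPM) and Kif13b (9.71 CPM), just under it, had -1.20 and -0.34. When the members were split along the chromosome into 7 runs of 14 or 15 genes, the median difference of a run was -0.90 to -0.72 in KO2 and -0.99 to -0.91 in KO3. By level, the median was -0.84 for 34 members at 10.4 to 20.5 CPM, -0.89 for 33 at 20.9 to 46.3 CPM and -0.87 for 33 at 47.3 to 605 CPM. A further 103 genes of the stretch that were tested but lay under 10 CPM had medians of -0.39 to -0.19 in the 8 comparisons, where the added pseudocount of 1 CPM shrinks differences.

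Each member's difference from WT was then set against 50 percent of WT by its 95% interval. A member is said to follow where the interval held -1 and not 0, to exceed where the whole interval lay below -1, and to escape where it lay wholly above -1. In KO2, 53, 59, 57 and 50 of 100 members followed in 2iL and at days 1, 3 and 5, 5, 7, 8 and 10 exceeded, and 42, 34, 35 and 40 escaped. In KO3, 67, 63, 70 and 44 followed, 7, 20, 15 and 18 exceeded, and 26, 16, 14 and 36 escaped. The remaining 4 of the 800 intervals, all in KO3, held both -1 and 0. Most escapes were partial: in 135 of 243 the interval lay between -1 and 0, and in 108 it reached 0 or beyond. Among 766 of the 800 comparisons in which WT itself was at 10 CPM or more, a restriction added after the values were seen, 456 followed, 90 exceeded and 216 escaped. Classes depend on the width of the interval, which is wider for low genes and for the KO3 groups of 2 libraries. The added pseudocount of 1 CPM also shrinks the differences of low members, so that a level of 50 percent of WT lies above -1 for them and favours escape.

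**Figure D3:**
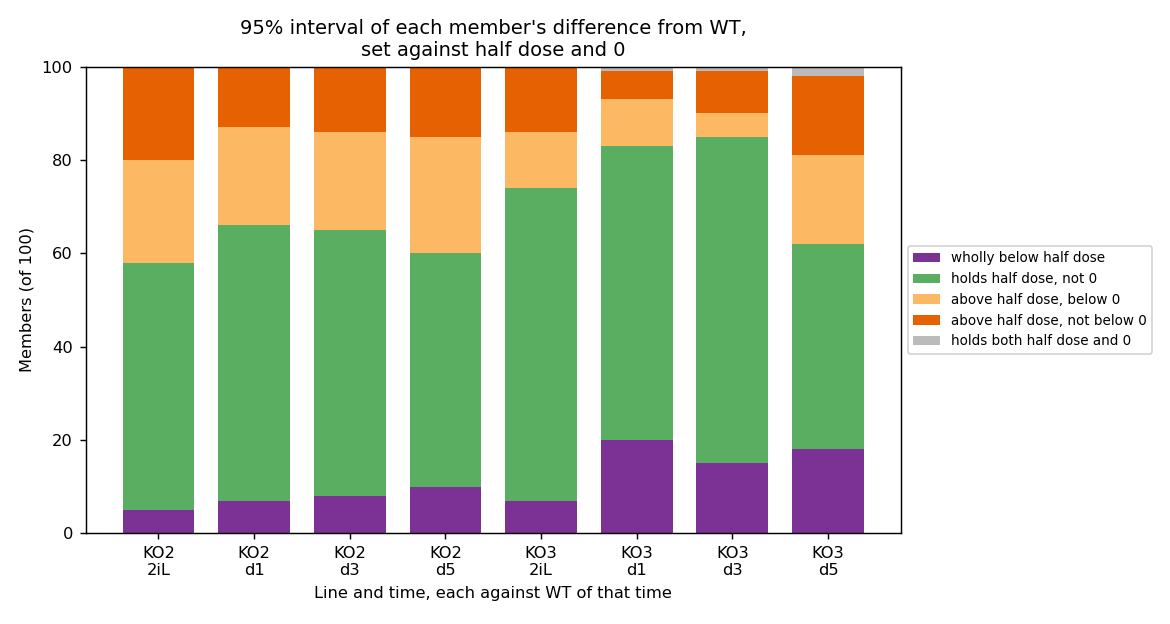
Number of the 100 members (y axis) in each class, for KO2 and KO3 against WT in 2iL and at AloXR days 1, 3 and 5 (x axis). Followers (green) are the largest class in each bar, from 44 in KO3 at day 5 to 70 in KO3 at day 3, and members that exceed (purple) number 5 to 20.

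By the call used for tests (limma, Benjamini-Hochberg adjusted p under 0.05 and at least 1.5-fold), 63, 74, 77 and 71 members were lower in KO2 in 2iL and at days 1, 3 and 5, where 7.94%, 6.72%, 6.98% and 10.6% of all 16967 tested genes were lower. In KO3, 75, 88, 83 and 65 members were lower, where 7.1%, 6.93%, 6.24% and 12.6% of all tested genes were. Nothing is read from these shares, since the same contrasts chose the stretch. Members called higher numbered 1, 2, 1 and 1 in KO2, where 9.9%, 6.75%, 7.31% and 6.27% of all tested genes were higher, and 0, 0, 0 and 1 in KO3, where 6.12%, 8.5%, 12.7% and 12.8% were. In 67, 85, 84 and 79 members every KO2 library lay below every WT library of the same time, and in 77, 94, 91 and 84 members every KO3 library did. The same held for 11.6%, 12.9%, 12% and 15.8% of all tested genes in KO2 and for 10.9%, 15.3%, 21.3% and 26.1% in KO3. Of the 100 members, 45 lay below every WT library in all 8 comparisons, 33 were called lower in all 8 and 4 in none. The share of all tested genes over all 8 together was not counted, and nothing is read from these counts.

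Over the 8 comparisons a member's mean difference had a median of -0.87. It lay between -1.25 and -0.75 for 57 members, between -0.75 and -0.5 for 27, above -0.5 for 11 and below -1.25 for 5. The mean over 4 times was lower in KO3 than in KO2 for 78 of 100 members. The order of the members was only partly the same from time to time: across the 100 genes, Spearman's rho between differences at 2 different times was 0.05 to 0.62 within a line and 0.07 to 0.49 between lines. These 24 pairs share no library, and genes are not independent replicates, so the values are a description.

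**Figure D4:**
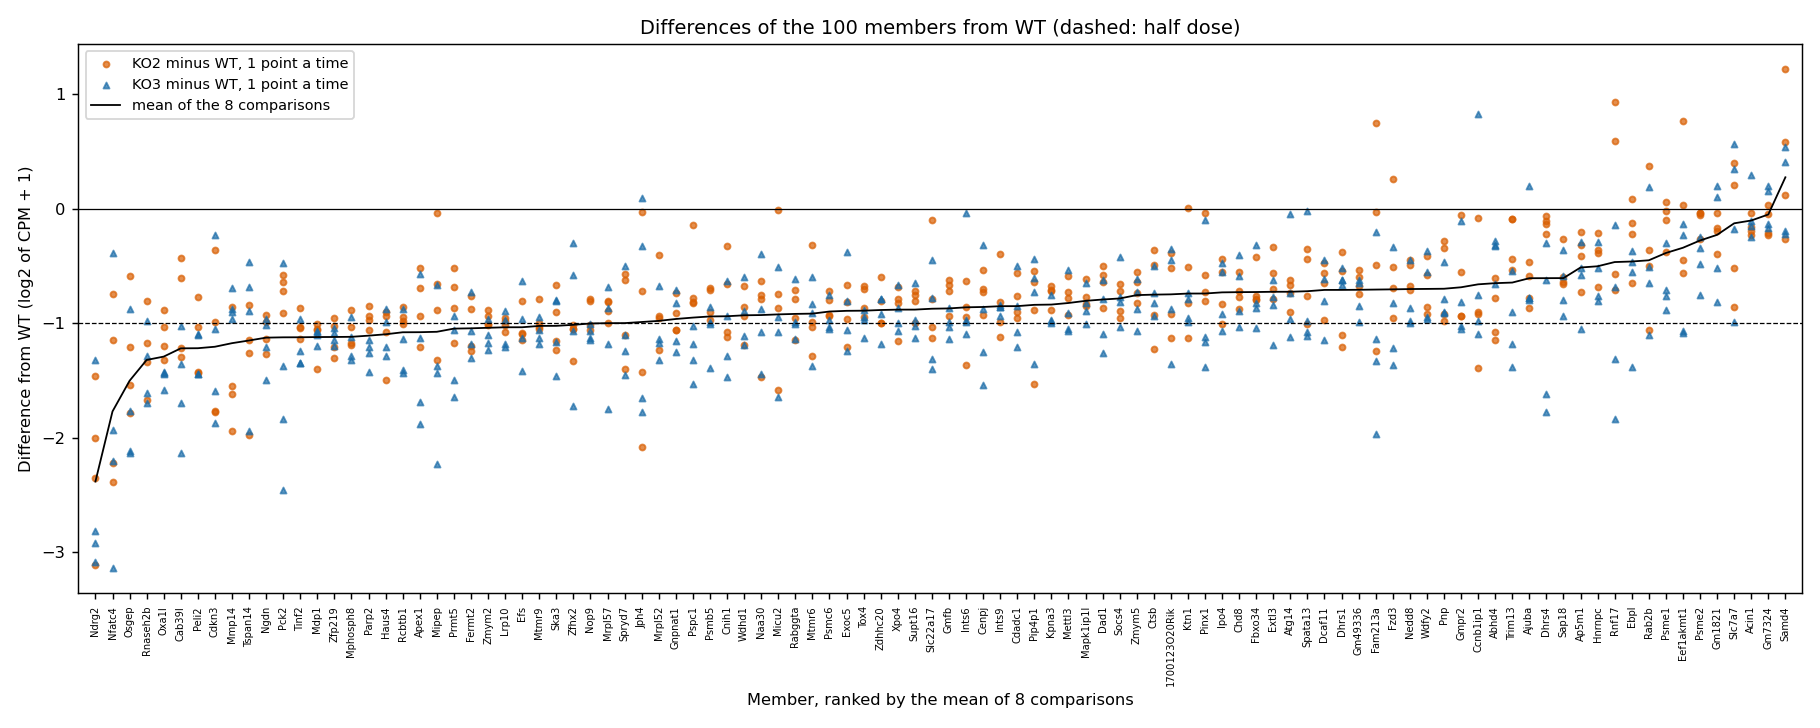
Difference from WT (y axis, log2 of CPM + 1) of the 100 members, ranked by the mean of 8 comparisons (x axis and black line). Circles are KO2 and triangles KO3, 1 point a time, and the dashed line marks 50 percent of WT. The ranked means run from -2.38 (Ndrg2) to 0.28 (Samd4), with 57 members between -1.25 and -0.75.

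Mphosph8, the chromodomain subunit of the HUSH silencing complex (14:56668248-56697430, plus strand), followed in 5 of the 8 comparisons and exceeded in 3, and its level was exceeded only by that of Hnrnpc. In WT it stood at 858, 747 and 749 CPM in 2iL and at 867, 846, 941 and 961 CPM at day 1. In KO2 it stood at 360, 420 and 502 CPM and then at 430, 435, 483 and 416 CPM, and in KO3 at 376, 447 and 401 CPM and then at 434, 416, 416 and 398 CPM. All depleted libraries were below all WT libraries, at all 4 times. The differences were -0.89 (95% interval -1.09 to -0.68) and -0.94 (-1.15 to -0.74) in 2iL for KO2 and KO3, and its mean over the 8 comparisons was -1.12. At day 3 it lay below the reference in both lines, with -1.18 ± 0.09 (SE) in KO2 and -1.32 ± 0.11 in KO3, and at day 5 in KO3 only (-1.29 ± 0.11).

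Followers were spread over unrelated functions. Counting each member once, 61 followed in at least 5 of the 8 comparisons and 8 in all 8. Those 8, singled out after their values were seen, were Gnpnat1, an acetyltransferase of the hexosamine pathway, the lipoprotein receptor family member Lrp10, the adaptor Efs, Rabggta, the alpha subunit of Rab geranylgeranyl transferase, the nucleolar protein Nop9, the zinc finger protein Zmym2, the exporter Xpo4 and the myotubularin-related protein Mtmr9. Their mean differences ranged from -1.04 (Zmym2) to -0.88 (Xpo4). Nop9 stayed between -1.14 and -0.79 at every line and time. Among members of high level, Psmc6, an ATPase subunit of the proteasome's regulatory particle, lay between -1.05 and -0.72, Supt16, a subunit of the histone chaperone FACT, between -1.13 and -0.65, and the importin Kpna3 between -0.999 and -0.674.

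The members furthest below the reference were Ndrg2, Nfatc4 and Osgep, and each was further below WT at some later times than in 2iL. Ndrg2 encodes a protein of the N-myc downstream regulated family (14:51905271-51914158, minus strand). In 2iL it stood at 21.8, 19 and 19.1 CPM in the WT libraries, 12, 5.88 and 3.98 in those of KO2 and 15.3, 6.41 and 3.84 in those of KO3. At day 3 it stood at 30.8, 26.2, 28.5 and 26.6 CPM in the WT libraries, 2.51, 3.78, 1.25 and 2.33 in those of KO2 and 2.88 and 3.41 in those of KO3. WT and depleted libraries did not overlap, and its difference was -3.11 ± 0.28 in KO2 and -2.81 ± 0.34 in KO3. Its change from 2iL at day 3 was -1.66 ± 0.42 in KO2 (limma adjusted p = 0.0047) and -1.49 ± 0.46 in KO3 (adjusted p = 0.026), and the KO3 call was lost in 6 of 21 alternatives, 4 of which left out a single library.

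Nfatc4, a transcription factor activated by calcineurin (14:55823144-55833943, plus strand), was a little below WT in KO3 in 2iL and far below it at day 5. In 2iL it stood at 12.3, 10.2 and 11.4 CPM in the WT libraries, 8.18, 4.67 and 6.49 in those of KO2 and 9.56, 10.02 and 6.10 in those of KO3. At day 5 WT stood at 52.4, 53.7, 54.8 and 60.9 CPM, KO2 at 14.8, 8.75, 7.57 and 9.21 CPM and KO3 at 4.11 and 7.02 CPM. Its rise in WT from 2iL to day 5 was 2.20 ± 0.23 (limma adjusted p = 3.8e-11). No library of KO2 or KO3 came near the WT level at day 5, and the change of the difference from 2iL to day 5 was -1.64 ± 0.33 in KO2 (adjusted p = 0.0003) and -2.76 ± 0.36 in KO3 (adjusted p = 2.2e-07).

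Osgep encodes the enzyme subunit of the KEOPS complex, which modifies transfer RNA (14:50906478-50924893, minus strand), and Apex1, the endonuclease of base excision repair (14:50924968-50927139, plus strand), starts 75 bases away on the other strand. Osgep stood at 120, 116, 112 and 117 CPM in the WT libraries at day 5, 43.3, 33.1, 30.5 and 27.6 in those of KO2 and 25.1 and 27.2 in those of KO3. In 2iL it had been at 48.4 to 58.5 CPM in WT, 30.7 to 37.7 CPM in KO2 and 27.4 to 29.1 CPM in KO3. The groups did not overlap at either time, and Osgep was 1 of 2 members, with Tspan14, whose difference changed from 2iL in all 6 tests of line and day. Its differences were -0.58 and -0.88 in 2iL and -1.78 and -2.11 at day 5 in KO2 and KO3. Apex1 exceeded in KO3 at day 1 (-1.88 ± 0.17) and day 3 (-1.69 ± 0.21) and escaped in both lines at day 5 (-0.52 and -0.57). Apex1 also overlaps its neighbour Pip4p1, so its reads are less certain.

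Of the other members furthest below, Rnaseh2b, a subunit of the nuclease that removes ribonucleotides from DNA, had a mean difference of -1.32 and Oxa1l, the insertase of the inner mitochondrial membrane, -1.29. Oxa1l exceeded in 5 of 8 comparisons and followed in 3. Its 3′ end overlaps that of Slc7a7 on the other strand, and whether reads were assigned by strand is not given in the sources used here.

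The starts of these genes are shown to compare members that fell below, met or stayed above the reference, as the 80 bases before the annotated start (RefSeq, GRCm38.p6), 5′ to 3′ on the gene's strand. RefSeq starts can differ from the gene positions given above. The windows of Nfatc4 (14:55824715-55824794) and Ndrg2 (14:51914005-51914084) lie inside the spans given for these genes. For the Osgep and Apex1 pair the 55 bases between both starts are shown on the plus strand (14:50924894-50924948). Capitals mark CCAAT on either strand (CCAAT or ATTGG) and the E-box CACGTG.
Ndrg2 (mean difference -2.38): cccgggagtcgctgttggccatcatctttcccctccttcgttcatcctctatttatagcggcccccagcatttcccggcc
Nfatc4 (-1.77): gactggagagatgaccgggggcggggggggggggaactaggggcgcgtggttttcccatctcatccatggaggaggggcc
Osgep and Apex1 (-1.50 and -1.08): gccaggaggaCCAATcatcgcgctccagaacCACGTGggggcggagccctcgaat
Mphosph8 (-1.12): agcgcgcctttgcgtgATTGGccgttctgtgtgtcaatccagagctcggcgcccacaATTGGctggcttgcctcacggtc
Acin1 (-0.10): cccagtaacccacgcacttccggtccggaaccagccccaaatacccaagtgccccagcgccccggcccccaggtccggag
Neither Ndrg2, Nfatc4 nor Acin1 held either motif in these 80 bases. A RefSeq promoter was found for 84 of the 100 members. Within 80 bases before the start, CCAAT was in 18 of 84 members (21.4%) and in 17.6% of all promoters of the table, and CACGTG in 5 (5.95%) and in 3.11%. The estrogen-related receptor motif TCAAGGTCA was in 0 of the 84, searched on both strands over the 250 bases before the start, and in 0.422% of 27025 genes. Its shorter core AAGGTCA was in 2 (2.38%), Ajuba and Pspc1, and in 4.70% of all. A match or its absence describes the letters in these windows, not binding.

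Acin1, a scaffold of the splicing-associated ASAP complex (14:54642161-54686931, minus strand), stayed near WT in both lines. At day 1 it stood at 415, 449, 375 and 401 CPM in the WT libraries, 348, 336, 344 and 372 in those of KO2 and 329, 339, 367 and 346 in those of KO3. At day 5 it stood at 310, 275, 339 and 336 CPM in the WT libraries, 322, 279, 296 and 332 in those of KO2 and 384 and 387 in those of KO3. Depleted and WT libraries were apart at day 1 and overlapped in KO2 at day 5, where KO3 lay above WT. Acin1 escaped in all 8 comparisons, with differences of -0.25 to 0.30, and was called lower in none. It overlaps 1700123O20Rik (24.7 CPM) on the other strand.

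Hnrnpc, which binds uridine-rich stretches of nascent RNA, escaped in all 8 comparisons but was still below WT in each. At day 1 it stood at 802, 836, 743 and 732 CPM in the WT libraries, 633, 593, 549 and 647 in those of KO2 and 442, 440, 445 and 451 in those of KO3. These 3 groups did not overlap. Its differences ran from -0.81 to -0.21, and its mean was -0.50.

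Samd4, a relative of the translational repressor Smaug (14:46882854-47105815, plus strand), was the member with the highest mean difference, 0.28. It was almost silent in 2iL, at 1.59, 0.260 and 1.07 CPM in WT, where its class says little. Its day 1 levels were 1.58, 4.68, 2.06 and 3.84 CPM in the WT libraries, 10.04, 10.1, 7.45 and 5.18 in those of KO2 and 3.92, 8.75, 3 and 4.07 in those of KO3. All KO2 libraries were above WT there and KO3 overlapped it, with differences of 1.22 ± 0.26 and 0.54 ± 0.26. The positive mean rests on 2iL (0.58 and 0.41) and day 1. At day 3 it stood at 18.3, 18.1, 17.1 and 15.6 CPM in the WT libraries, 26.7, 13.4, 19.4 and 18.2 in those of KO2 and 16 and 13.4 in those of KO3. At day 5 WT was at 32.3 to 47.8 CPM, KO2 at 23.9 to 44.8 CPM and KO3 at 38.2 and 30.1 CPM. The groups overlapped at days 3 and 5, with differences of 0.13 and -0.22 at day 3 and of -0.26 and -0.19 at day 5.

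Slc7a7, the light chain of a cationic amino acid transporter (14:54369442-54417780, minus strand), followed at day 1 and escaped at other times. At day 1 it stood at 113, 106, 102 and 91.4 CPM in the WT libraries, 63.5, 70.4, 46.8 and 48.3 in those of KO2 and 49, 59.3, 46.7 and 51.9 in those of KO3, without overlap. At day 5 WT was at 19.9, 20.01, 21.6 and 24.4 CPM, KO2 at 25.5, 26.5, 31.6 and 31.5 CPM and KO3 at 34.1 and 30.3 CPM, so that both lines lay above WT. Of the 17 members that escaped in at least 5 comparisons, others included Psme1 and Psme2, the subunits of the proteasome activator, which are treated with the lines below, and the ASAP subunit Sap18 (mean -0.60). Gm7324 (-0.05), the processed pseudogene Gm1821 (-0.23) and Gm49336 (-0.71) were also among them. Reads of these 3 gene models may be shared with copies elsewhere, and their values are uncertain. In all, 25 members overlap another gene with a mean of at least 1 CPM.

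**Figure D5:**
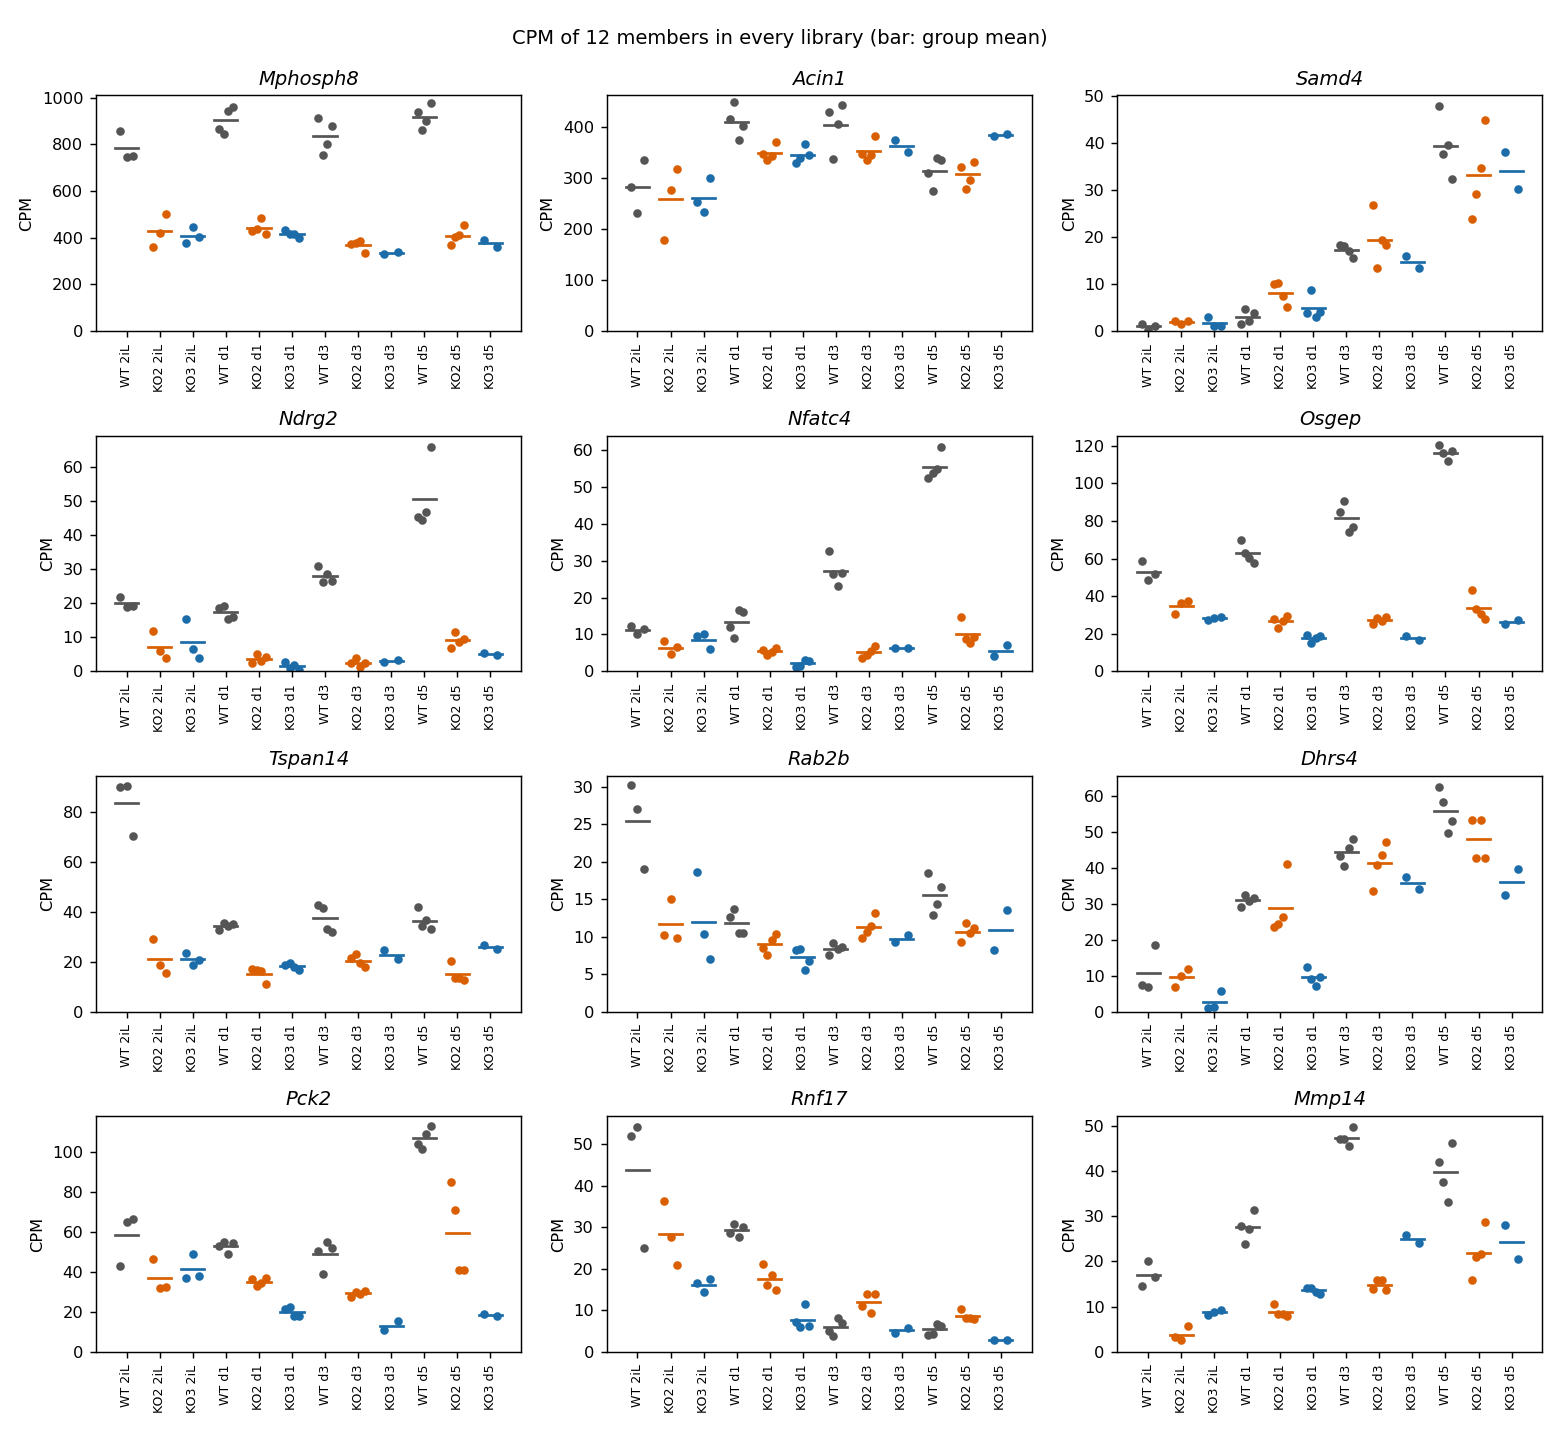
CPM (y axis, from 0) of 12 members in each library, by line and time (x axis), with the group mean as a bar. Mphosph8 sits at 328 to 502 CPM in all depleted libraries and at 747 to 977 CPM in all WT libraries. Acin1 overlaps between lines in 2iL. Nfatc4 and Osgep rise in WT from 2iL to day 5. Between the same times the mean of Nfatc4 rises less in KO2 and falls in KO3, and that of Osgep does not rise in either line.

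Described by role, the lists had medians from -0.69 to -1.02 in KO2 and from -0.82 to -1.08 in KO3, and differences between lists were not tested. Over all members 57.9% of the 800 comparisons followed and 30.4% escaped. The 11 members of the proteasome and ubiquitin system had medians of -0.69 in KO2 and -0.82 in KO3, with 51 of 88 comparisons following, 5 exceeding and 32 escaping. Some genes in the account of roles were picked after their values were seen. The first list runs from Peli2 (mean -1.22) and Rcbtb1 (-1.08) to Psme2 (-0.28), with the ubiquitin-like modifier Nedd8 at -0.70. The 8 members of DNA replication and repair had medians of -0.87 and -1.08, and 42 of 64 followed. Among them the poly(ADP-ribose) polymerase Parp2 was at -1.11, the telomere protein Tinf2 at -1.12 and the telomerase inhibitor Pinx1 at -0.74. The 11 chromatin and transcription members had -0.82 and -0.98, with 55 of 88 following. The paraspeckle protein Pspc1 was at -0.95 and the remodeller Chd8 at -0.73.

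RNA binding and processing was the list with the most escapes, 39 of 88 comparisons against 37 that followed. It spans Osgep (-1.50) and the arginine methyltransferase Prmt5 (-1.05) as well as Hnrnpc, Acin1 and Samd4. The Integrator subunits Ints6 (-0.86) and Ints9 (-0.85) and the RNA adenosine methyltransferase Mettl3 (-0.82) lay between. The 14 membrane and trafficking members followed in 71 of 112 comparisons, among them the exocyst subunit Exoc5 (-0.89), the cargo receptor Cnih1 (-0.94), the kinectin Ktn1 (-0.74) and Dad1 of the oligosaccharyltransferase (-0.79). The 10 mitochondrial and metabolic members followed in 45 of 80 and exceeded in 15. The mitochondrial ribosomal protein Mrpl52 was at -0.98 and Pck2 at -1.12. The 8 signalling and adhesion members followed in 39 of 64 and exceeded in 15, and their median was -1.02 in KO2 and -1.05 in KO3. The focal adhesion protein Fermt2 was at -1.04, Socs4 at -0.78 and the guanine nucleotide exchange factor Spata13 at -0.72. The 7 cell cycle and nuclear transport members followed in 38 of 56 comparisons, with the importin Ipo4 at -0.73 and the replication factor Wdhd1 at -0.93.

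KO3 against KO2 was not itself used to choose the members, but low levels in both lines were, which left out flanking genes that differ between the lines. From Elp3 to Tdrd3, 33, 41, 38 and 43 of 50 genes were called higher in KO3 in 2iL and at days 1, 3 and 5. Of the 100 members, 9 differed in 2iL, 15 at day 1, 10 at day 3 and 14 at day 5 (limma, adjusted p under 0.05 and at least 1.5-fold). The share of all tested genes that differed was 7.24%, 15%, 7.69% and 14.1%, which is near the members' own share. Their direction was mostly downward: 7, 14, 9 and 9 were lower in KO3, where 4.74%, 6.79%, 2.11% and 5.06% of all genes were, and 2, 1, 1 and 5 were higher, where 2.5%, 8.19%, 5.58% and 9.02% of all genes were. In total 31 members differed at 1 or more times, 24 of them lower and 7 higher at each time called. The share of all tested genes was not counted for this total, so nothing is read from it. With 1 KO3 library of day 3 left out, 3 (without library 1) or 5 (without library 2) members differed at that day, and 7 or 9 at day 5 when a KO3 library of that day was left out. In 2iL the count was 14 without KO3 library 3. With only the 2iL libraries fitted it was 0, both by limma (13 at an unadjusted p under 0.05) and by edgeR.

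Rnf17, a Tudor-domain protein of germ cells, was the 1 member called at all 4 times. At day 1 it stood at 28.5, 30.7, 27.6 and 30.1 CPM in the WT libraries, 21.1, 16.1, 18.4 and 15 in those of KO2 and 7.18, 5.91, 11.6 and 6.32 in those of KO3. The 3 groups did not overlap, and KO3 minus KO2 was -1.12 ± 0.21 (limma adjusted p = 0.0001). The difference was -0.74 ± 0.25 in 2iL, a call lost in 8 of 15 alternatives, -1.07 ± 0.26 at day 3, a call lost without KO3 library 1 of that day, and -1.28 ± 0.26 at day 5. At day 3 KO2, at 11, 13.9, 9.38 and 14 CPM, lay above WT, at 5.07, 3.71, 8.06 and 7.06 CPM, and KO3 was at 4.52 and 5.84 CPM.

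Pck2, the mitochondrial phosphoenolpyruvate carboxykinase, parted between the lines after 2iL. In 2iL it stood at 46.1, 31.7 and 32.4 CPM in KO2 libraries and 36.7, 49.1 and 37.8 in KO3 libraries. At day 5 WT was at 104, 101, 109 and 113 CPM, KO2 at 84.7, 70.7, 40.7 and 40.9 CPM and KO3 at 19.1 and 18.1 CPM. KO3 lay below every KO2 library, with a difference of -1.55 ± 0.20 (limma adjusted p = 2.9e-07), and KO2 itself was split into 2 high and 2 low libraries. At day 3 the difference was -1.12 ± 0.20 (adjusted p = 0.0002), a call lost without the KO3 library 1 of that day (adjusted p = 0.0502).

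Dhrs4, a dehydrogenase of retinal and other carbonyls, escaped in KO2 at every time, while in KO3 it exceeded in 2iL and at day 1, escaped at day 3 and followed at day 5. At day 1 it stood at 29.1, 32.4, 31 and 31.5 CPM in the WT libraries, 23.6, 24.4, 26.3 and 41.2 in those of KO2 and 12.4, 9.19, 7.07 and 9.71 in those of KO3. KO3 minus KO2 was -1.48 ± 0.25 (limma adjusted p = 2.5e-05) with no overlap. At day 3 KO3 was at 37.6 and 34.1 CPM, within the range of KO2 (33.6 to 47.1 CPM).

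Mmp14, a membrane-anchored matrix protease, went the other way, being higher in KO3 than in KO2 by 1.06 ± 0.19 in 2iL (limma adjusted p = 7e-05), 0.59 ± 0.16 at day 1 and 0.72 ± 0.20 at day 3. In 2iL it stood at 14.6, 20.04 and 16.5 CPM in the WT libraries, 3.21, 2.64 and 5.65 in those of KO2 and 8.23, 8.81 and 9.24 in those of KO3. The lines did not overlap: Mmp14 followed in KO3 at every time and exceeded in KO2 up to day 3. The 2iL call was lost when only the 2iL libraries were fitted (limma adjusted p = 0.0818), the day 1 call in 8 of 16 alternatives, and the day 3 call when either KO3 library of that day was left out.

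The proteasome activator genes Psme1 and Psme2 differed between the lines at day 1. At day 1 Psme1 stood at 99.8, 108, 98.4 and 88.2 CPM in the WT libraries, 95.4, 111, 92.7 and 113 in those of KO2 and 59.4, 60.8, 64.1 and 54.9 in those of KO3. KO2 overlapped WT and KO3 was below both, with KO3 minus KO2 at -0.77 ± 0.12 (limma adjusted p = 2e-06). Psme2 gave -0.72 ± 0.14 (adjusted p = 0.00012) at the same time. Pspc1 differed in 2iL (-0.88 ± 0.15, adjusted p = 4e-05), where KO2 at 85, 93.3 and 84.5 CPM lay within the WT range of 76.2 to 111 CPM and KO3 was at 36, 57.1 and 50.2 CPM. That call was lost when only the 2iL libraries were fitted (adjusted p = 0.0504).

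At day 5 members higher in KO3 than in KO2 included Ccnb1ip1, a meiotic and cyclin B-binding ubiquitin ligase (0.91 ± 0.25, limma adjusted p = 0.0087), Tspan14, a tetraspanin (0.79 ± 0.19, adjusted p = 0.0031), Abhd4 (0.76 ± 0.26), the autophagy factor Atg14 (0.68 ± 0.20) and Ints6 (0.59 ± 0.22). Each of these calls was lost with the KO3 day 5 library 1 left out. Members lower in KO3 at that time included the redox protein Fam213a (-1.47 ± 0.29, adjusted p = 0.00035), the ubiquitin ligase Trim13 (-1.29 ± 0.23, adjusted p = 0.0001) and the mitochondrial peptidase Mipep (-0.91 ± 0.25, adjusted p = 0.0098). The Trim13 and Mipep calls were lost without the KO3 day 5 library 2, and the Ints6 call in 11 of 14 alternatives. Several marker sums also parted between KO3 and KO2 at day 5 without overlap. Primitive endoderm markers were at 351 to 429 CPM in KO3 and 46.4 to 66.3 CPM in KO2. Trophoblast markers were at 383 to 407 and 213 to 252 CPM, and neuroectoderm markers at 275 to 292 and 151 to 243 CPM. Core pluripotency markers were at 729 to 737 and 536 to 697 CPM. The naive, formative and fibroblast markers overlapped. The part of these markers in the members' differences was not tested.

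The difference from WT also moved with time for part of the members. Against the difference in 2iL, 9, 17 and 21 members changed in KO2 at days 1, 3 and 5 (limma, same call), where 8.04%, 13.1% and 14.2% of all tested genes did. In KO3, 11, 13 and 25 changed, where 9.06%, 12.5% and 18.7% of all genes did. Of these, 5, 11 and 13 in KO2 changed downward against WT (4.26%, 6.78% and 8.79% of all genes) and 4, 6 and 8 the other way (3.78%, 6.37% and 5.4%). In KO3, 10, 9 and 14 changed downward (3.86%, 3.98% and 9.25%) and 1, 4 and 11 the other way (5.2%, 8.56% and 9.45%). Of 41 members called in at least 1 of these 6 tests, 22 changed downward each time called, 18 upward, and 1, Slc7a7, did both. A downward change is not always a larger deficit: Eef1akmt1, a lysine methyltransferase of an elongation factor, was above WT by 0.77 in KO2 in 2iL and changed by -1.33 at day 1. At day 1 the counts turned on single 2iL libraries: without the WT 2iL library 3 they were 19 in KO2 and 18 in KO3. The KO2 count was 5 without the KO2 2iL library 2 or 3, and the KO3 count was 7 without the WT 2iL library 1 or the WT day 1 library 1. In all, 52 members passed neither these tests nor KO3 against KO2. For this count and for the 41 above, the share of all tested genes was not counted, so nothing is read from them.

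Besides Osgep, Nfatc4 and Ndrg2, members that changed downward included Cdkn3, a phosphatase of cyclin-dependent kinases. It stood at 10.01, 11.2 and 16.5 CPM in WT in 2iL and at 22.7, 23.8, 22.5 and 24.4 CPM at day 5. KO2 went from 8.76, 7.91 and 11.7 CPM to 6.38, 6.86, 4.68 and 6.91 CPM, and KO3 from 8.68, 10.6 and 12 CPM to 4.83 and 6.57 CPM. The lines overlapped WT in 2iL and not at day 5, and the change was -1.41 ± 0.32 in KO2 (limma adjusted p = 0.0013) and -1.65 ± 0.35 in KO3 (adjusted p = 0.00056). Micu2, a regulator of mitochondrial calcium uptake, changed by -1.57 ± 0.31 in KO2 (adjusted p = 0.00025) and by -1.13 ± 0.34 in KO3 (adjusted p = 0.015) at day 5, and Mipep by -1.28 ± 0.32 and -1.57 ± 0.35. Jph4, a junctophilin, was at 0 to 0.601 CPM in all 2iL libraries, so its changes of -2.05 ± 0.33 in KO2 and -1.87 ± 0.33 in KO3 at day 1 restate its difference at day 1. There it was at 27.3 to 43.3 CPM in WT, 5.18 to 10.7 CPM in KO2 and 8.71 to 10.5 CPM in KO3. These calls for Jph4 were lost with edgeR (adjusted p = 0.492 and 0.202).

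Tspan14 moved the other way in all 6 tests. It is the first member at the lower end, and its 2iL differences, the lowest of all members in both lines, enter each of these tests. In 2iL it stood at 89.9, 90.3 and 70.2 CPM in the WT libraries, 29.2, 18.7 and 15.3 in those of KO2 and 23.4, 18.6 and 20.7 in those of KO3. At day 1 WT had fallen to 32.6, 35.5, 34 and 35 CPM, KO2 was at 17.1, 16.8, 16.1 and 10.9 CPM and KO3 at 18.7, 19.2, 17.8 and 16.5 CPM. Depleted libraries remained below WT, while the difference went from -1.98 and -1.94 in 2iL to -1.14 and -0.89. The change at day 1 was 0.84 ± 0.24 in KO2 (limma adjusted p = 0.022) and 1.05 ± 0.24 in KO3 (adjusted p = 0.0024). The GTPase Rab2b went from -1.06 and -1.10 in 2iL to 0.38 and 0.19 at day 3, a change of 1.44 ± 0.30 in KO2 (adjusted p = 0.00064) and 1.29 ± 0.33 in KO3 (adjusted p = 0.0062). The lysosomal protease Ctsb changed by 0.86 ± 0.25 in KO2 at day 1, a call lost without the WT 2iL library 1 or 2 or the KO2 2iL library 2 or 3.

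In WT, 28 members rose and 10 fell from 2iL to day 1, 33 rose and 12 fell to day 3, and 33 rose and 11 fell to day 5 (limma, same call), where 36.4%, 41.7% and 39.4% of all tested genes changed. Of all genes, 17.8%, 21% and 22.7% rose and 18.7%, 20.6% and 16.6% fell. Jph4 rose by 4.93 ± 0.23 at day 1 and Samd4 by 4.40 ± 0.28 at day 5. Rnf17 fell by 2.75 ± 0.23 at day 5 and Ctsb by 2.23 ± 0.17 at day 1. Nfatc4, Osgep, Cdkn3, Micu2 and Mipep, which changed downward against WT, rose in WT by day 5, and Tspan14, Rab2b and Ctsb, which changed upward, fell. The order was not general. Dhrs4 rose in WT by 2.07 ± 0.27 at day 3 and changed upward in KO3 by 1.47 ± 0.42. Pinx1 went in WT from 52.6 CPM in 2iL to 116 CPM at day 3 and 66.9 CPM at day 5, and changed upward at day 5 by 0.69 ± 0.23 in KO2 and 1.07 ± 0.26 in KO3. The WT libraries enter both measures, so the 2 sets of values are not independent.

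Partner genes of the members' complexes that are encoded elsewhere had medians near 0. The shares of all tested genes called lower and higher in the same 8 comparisons are given above with the members' calls. Lists this short allow few calls, so nothing is read from the counts of called partners. Of 31 proteasome subunits outside the segment, 0 were called lower in any of the 8 comparisons by limma or by edgeR, and 0 to 7 had an unadjusted p under 0.05 and a lower level. By limma 0 to 2 were called higher, and their median difference was -0.07 to 0.26. The higher ones included Psmd7 in KO3 at day 5 (0.99 ± 0.13, adjusted p = 1.7e-07) and Psmb3 in KO2 at day 1 (0.82 ± 0.12, adjusted p = 1.8e-06). Of 12 further Integrator subunits, 1 was called lower, Ints8 in KO2 at day 3 (-0.84 ± 0.16), and 1 higher, Ints5 in KO2 in 2iL (0.62 ± 0.19). Among 30 other partners, 0 to 3 were lower and 0 to 3 higher in a comparison. Zc3h13, a partner of Mettl3 that lies on chromosome 14 above the segment, was lower in KO2 in 2iL (-0.94 ± 0.17, adjusted p = 4.9e-05) and higher in KO3 at day 5 (0.70 ± 0.18). The stretch above the segment from Elp3 to Tdrd3 was itself low in KO2, and the part of this in the value of Zc3h13 was not tested. Wdr77, the cofactor of Prmt5, was higher at day 5 in KO2 (0.67 ± 0.15) and in KO3 (0.72 ± 0.18).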

How the data were processed

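Libraries were made with QuantSeq, which reads the 3′ end of polyadenylated transcripts, per the labels' protocols. Per the submitters' processing notes, STAR 2.7.6a, featureCounts 2.0.1 and the build GRCm38 were used. The authors deposited CPM, and each column sums to 1000000. Whole reads were recovered from the steps of the deposited CPM values: 100% of 766190 values above 0 were whole within 0.01 reads. A count of 0 allows up to 3 reads (0.523 to 0.876 CPM), counting error only. Gene positions, for 55141 rows, are those of GENCODE M21.

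The 16967 genes that reached 1 CPM in 3 or more libraries were fitted as log2(CPM + 1) with limma 3.58.1 in R 4.3.3, 1 mean per group over 12 groups, 29 residual degrees of freedom, with trend and robust moderation. Fold changes are on that scale, which understates changes of low genes. Calls needed a Benjamini-Hochberg adjusted p under 0.05 over all genes tested and at least 1.5-fold (0.58). The script was checked on simulated data. edgeR 4.0.16 on the recovered reads was an alternative, and called 17 members in KO3 against KO2 at day 1, where limma called 15. All members, lists, tests and naming rules were chosen with earlier results of these data known. Named genes were the 5 lowest and 5 highest members by mean difference, the largest called differences between lines and over time, the 4 members of highest level per role, the genes at each threshold, and called partners, and any other is marked. Alternatives covered pseudocount, filter, scaling, libraries fitted, tool and reference.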

Additional observations from a re-analysis of the deposited data

Results flagged for a closer look

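Single libraries stood apart from the rest of their group in 5 of 105 tests, each of 1 measure in 1 group of 4 libraries. The limit was Dixon's 95% limit for the gap to the nearest library, and chance alone gives about 1 in 20. The tests reuse the same libraries and are not independent. The libraries apart are listed by measure. These were Dhrs4 in KO2 day 1 library 4 (41.2 CPM), Jph4 in KO2 day 3 library 2 (7.06 CPM) and Ndrg2 in WT day 5 library 4 (65.9 CPM). The others were the members' summed level in KO2 day 3 library 2 (5507 CPM) and in KO2 day 5 library 1 (5356 CPM).

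Of the members that differed by limma in KO3 against KO2, those with the largest difference, up to 5 a direction, are given here: 7 of 9 in 2iL, 6 of 15 at day 1, 6 of 10 at day 3 and 10 of 14 at day 5. In 2iL these were Ajuba (0.67), Eef1akmt1 (-0.90) and Cenpj (-0.81), beside Dhrs4 (-1.71), Mmp14 (1.06), Pspc1 (-0.88) and Rnf17 (-0.74). At day 1 they were Nfatc4 (-1.06), Fam213a (-0.95) and Cab39l (-0.92), beside Dhrs4 (-1.48), Rnf17 (-1.12) and Mmp14 (0.59). At day 3 they were Fam213a (-1.30), Apex1 (-0.75) and Pspc1 (-0.75), beside Pck2 (-1.12), Rnf17 (-1.07) and Mmp14 (0.72). At day 5 they were Pck2 (-1.55), Fam213a (-1.47), Trim13 (-1.29), Rnf17 (-1.28), Mipep (-0.91), Ccnb1ip1 (0.91), Tspan14 (0.79), Abhd4 (0.76), Atg14 (0.68) and Ints6 (0.59).

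Of the members whose difference from WT changed, by limma, between 2iL and a later time, the 4 with the largest change in each line and day are given here, out of 9, 17 and 21 in KO2 and 11, 13 and 25 in KO3. In KO2 these were Jph4 (-2.05), Fam213a (2.00), Eef1akmt1 (-1.33) and Ctsb (0.86) at day 1, Ndrg2 (-1.66), Rnf17 (1.5), Nfatc4 (-1.47) and Rab2b (1.44) at day 3, and Nfatc4 (-1.64), Micu2 (-1.57), Cdkn3 (-1.41) and Mipep (-1.28) at day 5. In KO3 these were Jph4 (-1.87), Nfatc4 (-1.82), Ndrg2 (-1.59) and Tspan14 (1.05) at day 1, Jph4 (-1.74), Nfatc4 (-1.55), Ndrg2 (-1.49) and Dhrs4 (1.47) at day 3, and Nfatc4 (-2.76), Pck2 (-1.98), Ndrg2 (-1.76) and Cdkn3 (-1.65) at day 5.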

How the results depend on the processing

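No median of the members changed sign in an alternative, and neither did a named call of KO3 against KO2 or of change over time. A change of sign in a member's mean over all comparisons was not counted as a reversal. No paired analysis was possible because the labels give the libraries no replicate numbers. With a pseudocount of 0.5 CPM, medians were -1.01 (KO3 day 3) and -0.78 (KO2 day 5). With 5 CPM, they were -0.63, -0.75, -0.72 and -0.71 in KO2 and -0.76, -0.91, -0.87 and -0.72 in KO3 in time order, 57 comparisons exceeded, and KO3 against KO2 called 5 in 2iL and 8 at day 1. Without a filter the KO3 change at day 1 called 7. TMM scaling gave -1.03 (KO3 day 3), -0.69 (KO2 day 5) and -0.74 (KO3 day 5), and quantile scaling -0.77 (KO2 day 1), -1.03 (KO3 day 3) and -0.74 (KO2 day 5). With edgeR medians were -0.78 (KO2 2iL), -1.09 (KO3 day 1), -1.07 (KO3 day 3), -0.71 (KO2 day 5) and -0.76 (KO3 day 5). With the members' own median as the reference 145 escaped. For 50 members with at least 30 CPM, medians were -0.96 (KO3 2iL), -0.81 (KO2 day 5) and -0.86 (KO3 day 5), and 227 followed, 50 exceeded and 122 escaped.

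Fitting only the libraries of the times compared, limma called 0 members in KO3 against KO2 in 2iL (13 had an unadjusted p under 0.05, edgeR on the same libraries called 0 and edgeR on all libraries 8), and the changes called 5 (KO2 day 1), 7 (KO3 day 1) and 8 (KO3 day 3). Leaving out 1 library at a time, the calls ranged from 7 to 14 in 2iL, 14 to 16 at day 1, 3 to 10 at day 3 and 7 to 14 at day 5 for KO3 against KO2, and for the changes from 5 to 19, 13 to 20 and 14 to 21 in KO2 and 7 to 18, 10 to 17 and 20 to 32 in KO3. Medians ranged from -0.79 to -0.69, -0.87 to -0.80, -0.85 to -0.80 and -0.78 to -0.76 in KO2 and from -0.94 to -0.85, -1.05 to -1.01, -1.02 to -0.97 and -0.81 to -0.77 in KO3, and classes from 449 to 476 (follow), 82 to 94 (exceed) and 228 to 254 (escape). A lone KO3 library was assumed to vary like the other groups. Unless a value or the construction shows it, the cause was not tested.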
